A study of Mus musculus with 24 samples.

Results

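Goblet cells line the intestine between the absorptive cells and make the mucus that covers the epithelium. The transcription factor Atoh1 commits crypt progenitors to the secretory lineages, and Notch signalling between neighbouring cells keeps Atoh1 low in the progenitors that become absorptive. Spdef, an ETS family factor, acts later and drives goblet cell maturation. Agr2, a protein disulfide isomerase of the endoplasmic reticulum, is needed to fold and export the mucin Muc2. Tff3 (trefoil factor 3), Fcgbp (an IgG Fc binding protein of mucus), Clca1 (a mucus metalloprotease), Zg16 (a lectin-like protein that binds Gram-positive bacteria) and Spink4 (a Kazal-type protease inhibitor homolog) are released with the mucus. These 8 non-mucin goblet cell genes were taken by name, with earlier results of these data known, from 45706 Ensembl genes that the COL and SI count tables share. Each symbol matched 1 gene.

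The levels came from bulk RNA sequencing of mouse intestinal organoids, which are epithelial crypts grown in Matrigel. Organoids of colon (COL) and small intestine (SI) came from C57BL/6N mice with 3 genotypes, BraffloxV600E/+;Villin::CreERT2 (BRAF), Trp53LSL-R172H/+;Villin::CreERT2 (p53) and BraffloxV600E/+;Trp53LSL-R172H/+;Villin::CreERT2 (BRAFp53). All groups carry the Villin::CreERT2 transgene, whose promoter limits Cre to intestinal epithelium and whose recombinase is switched on by 4-hydroxytamoxifen (4-HT). The on groups received 4-HT for 24 h, at 3.5 µM in COL and 0.5 µM in SI, and then express BRAFV600E, p53R172H or both from 1 allele of the endogenous locus. The off groups received ethanol. RNA was taken 3 days (COL) or 8 days (SI) after recombination. The mice were adult. The 12 groups had 2 libraries each, 24 in all. The methods name 1 donor mouse per genotype with duplicate inductions, so the 2 libraries of a group are repeats of handling, and genotypes differ also in the culture. The p-values measure only the spread between such repeats, except for COL against SI without induction, where they measure the spread between cultures. The question was how these genes stand in each tissue and how they respond to each oncogene and to the pair.

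Libraries held 51.2 to 78.2 M counts (1 M being 1e6) in COL and 44.4 to 68.2 M in SI. Levels are given in CPM, the counts per 1e6 counts of a library after TMM scaling over the 24 libraries. The epithelial genes Epcam (358.5 to 650.5 CPM) and Vil1 (395.6 to 1992 CPM) were high in every library, and the gastric mucin Muc5ac reached at most 0.0132 CPM. Stromal and immune markers summed to at most 8.18 CPM in any group mean, with Col3a1 or Cd3e at 0 counts in most groups. The ERK targets Dusp6 and Spry4 were higher with induction in all 4 cultures with the Braf allele. Without SI BRAF on replicate 1, Dusp6 in SI BRAF changed by 3.20 on the log2 scale and Spry4 by 1.24, and Spry4 no longer passed. Trp53 RNA was higher with induction in COL p53 (log2 fold change 0.94, adjusted p = 0.023), while in SI p53 its 0.76 did not pass (adjusted p = 0.190). Braf itself passed in none of the 4 cultures with the Braf allele, and total Braf RNA does not separate the alleles. Some libraries stood apart. The small intestinal factor Gata4 stood at 32.1 to 49.4 CPM in the 4 COL BRAF libraries, against 0.293 to 2.67 CPM in the other COL libraries and at least 80.1 CPM in SI. Xist was at most 0.0395 CPM in COL, between 115.3 and 165.8 CPM in SI p53 and SI BRAFp53, and between 0.234 and 0.471 CPM in 3 SI BRAF libraries, but 17.1 CPM in SI BRAF on replicate 1. Ddx3y, on the Y chromosome, was at least 45.8 CPM in COL and near 0 in SI p53 and SI BRAFp53. Eif2s3y, also Y-linked, was at most 0.114 CPM in COL BRAF and 5.72 to 10.2 CPM in COL BRAFp53, against at least 60.1 CPM in COL p53 and SI BRAF. So the COL and SI libraries of p53 and of BRAFp53 had opposite sex-linked patterns, which 1 donor mouse for both tissues would not give. Those of BRAF differed in the level of Eif2s3y. Paneth cell genes were present in COL too, with Lyz1 (lysozyme) at 228.6 to 1754 CPM in COL against 41.2 to 152.3 CPM in SI. Calls that rest on SI BRAF on replicate 1 are given with and without it. The responses of COL BRAF, and the differences taken from them, come from that culture alone and have no value without it, whereas COL against SI without induction is also given without it.

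Upstream sequence is shown for the factors and their products because Spdef recognises an ETS-type GGAT core, and because Spdef and Agr2 moved together across the libraries. RefSeq (GRCm38.p6, the mm10 build) held a window for 4 of the 8 genes, given here as the 250 bases before the RefSeq start site, 5′ to 3′ on the gene's strand. In GENCODE M21, used for the gene symbols, Spdef ends at 27728955 and Agr2 begins at 35992907, both inside these windows. For Fcgbp, the bases following the RefSeq start were not found in the GENCODE transcripts. Capitals mark GGAT on either strand (ATCC where it lies on the other strand).
Atoh1 (chr6:64728875-64729124, plus strand): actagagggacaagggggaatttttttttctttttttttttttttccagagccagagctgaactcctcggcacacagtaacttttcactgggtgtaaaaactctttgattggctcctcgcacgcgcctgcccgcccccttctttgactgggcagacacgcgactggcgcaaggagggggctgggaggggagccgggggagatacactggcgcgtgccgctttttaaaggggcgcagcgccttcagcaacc
Spdef (chr17:27728952-27729201, minus strand): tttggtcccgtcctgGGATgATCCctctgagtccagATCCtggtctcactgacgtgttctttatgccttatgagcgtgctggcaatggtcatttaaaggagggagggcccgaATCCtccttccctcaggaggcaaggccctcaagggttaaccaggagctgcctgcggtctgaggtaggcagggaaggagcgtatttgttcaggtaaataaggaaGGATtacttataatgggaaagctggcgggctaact
Agr2 (chr12:35992675-35992924, plus strand): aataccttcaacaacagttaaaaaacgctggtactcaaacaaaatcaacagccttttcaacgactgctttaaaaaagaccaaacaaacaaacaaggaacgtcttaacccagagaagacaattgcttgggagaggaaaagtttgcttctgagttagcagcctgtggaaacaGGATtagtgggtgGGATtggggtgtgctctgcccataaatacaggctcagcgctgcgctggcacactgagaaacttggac
Fcgbp (chr7:28070986-28071235, plus strand): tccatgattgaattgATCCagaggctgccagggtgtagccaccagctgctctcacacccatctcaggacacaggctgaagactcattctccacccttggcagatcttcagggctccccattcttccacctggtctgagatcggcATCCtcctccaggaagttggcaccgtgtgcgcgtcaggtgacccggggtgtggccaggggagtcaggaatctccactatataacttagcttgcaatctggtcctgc

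The Spdef window held 5 GGAT matches, the nearest 35 bases from the start site. Agr2 held 2, at 80 and 67 bases, Fcgbp held 2, at 235 and 106 bases, and Atoh1 held 0. Such a match is common, since 74.1% of 32851 mouse windows of this length held at least 1. The bHLH motif CANNTG, the kind that Atoh1 binds, was found 3 times in Fcgbp (1 of them CAGCTG) and 1 time in Agr2, against 66.2% of all windows with any CANNTG and 13.0% with CAGCTG. These letters are a description of the windows and not of binding. Tff3, Clca1, Zg16 and Spink4 are named only. Spdef and Tff3 lie on chromosome 17 (27714352 to 27728955 and 31125306 to 31129646, both on the minus strand), Fcgbp and Zg16 on chromosome 7, and the other four on chromosomes 6 (Atoh1), 12 (Agr2), 3 (Clca1) and 4 (Spink4). Only Zg16 overlaps other annotated genes, 2 on the opposite strand with 0 shared exon bases. How reads that fit several places were counted was not given in the sources used here.

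The plot of levels by library shows how far each gene varied. Atoh1 ran from 1.39 to 26.6 CPM over the libraries (19.2-fold), Spdef from 3.59 to 49.8 CPM (13.9-fold) and Agr2 from 90.3 to 1486 CPM (16.5-fold). Clca1 varied most, from 2.78 to 183 CPM (66.0-fold), and Fcgbp least, from 174.4 to 605.3 CPM (3.47-fold). Zg16 varied 35.5-fold, Spink4 10.1-fold and Tff3 8.07-fold. The smallest count behind any of these values was 71 reads (Atoh1), so depth did not limit detection.

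**Figure D1:**
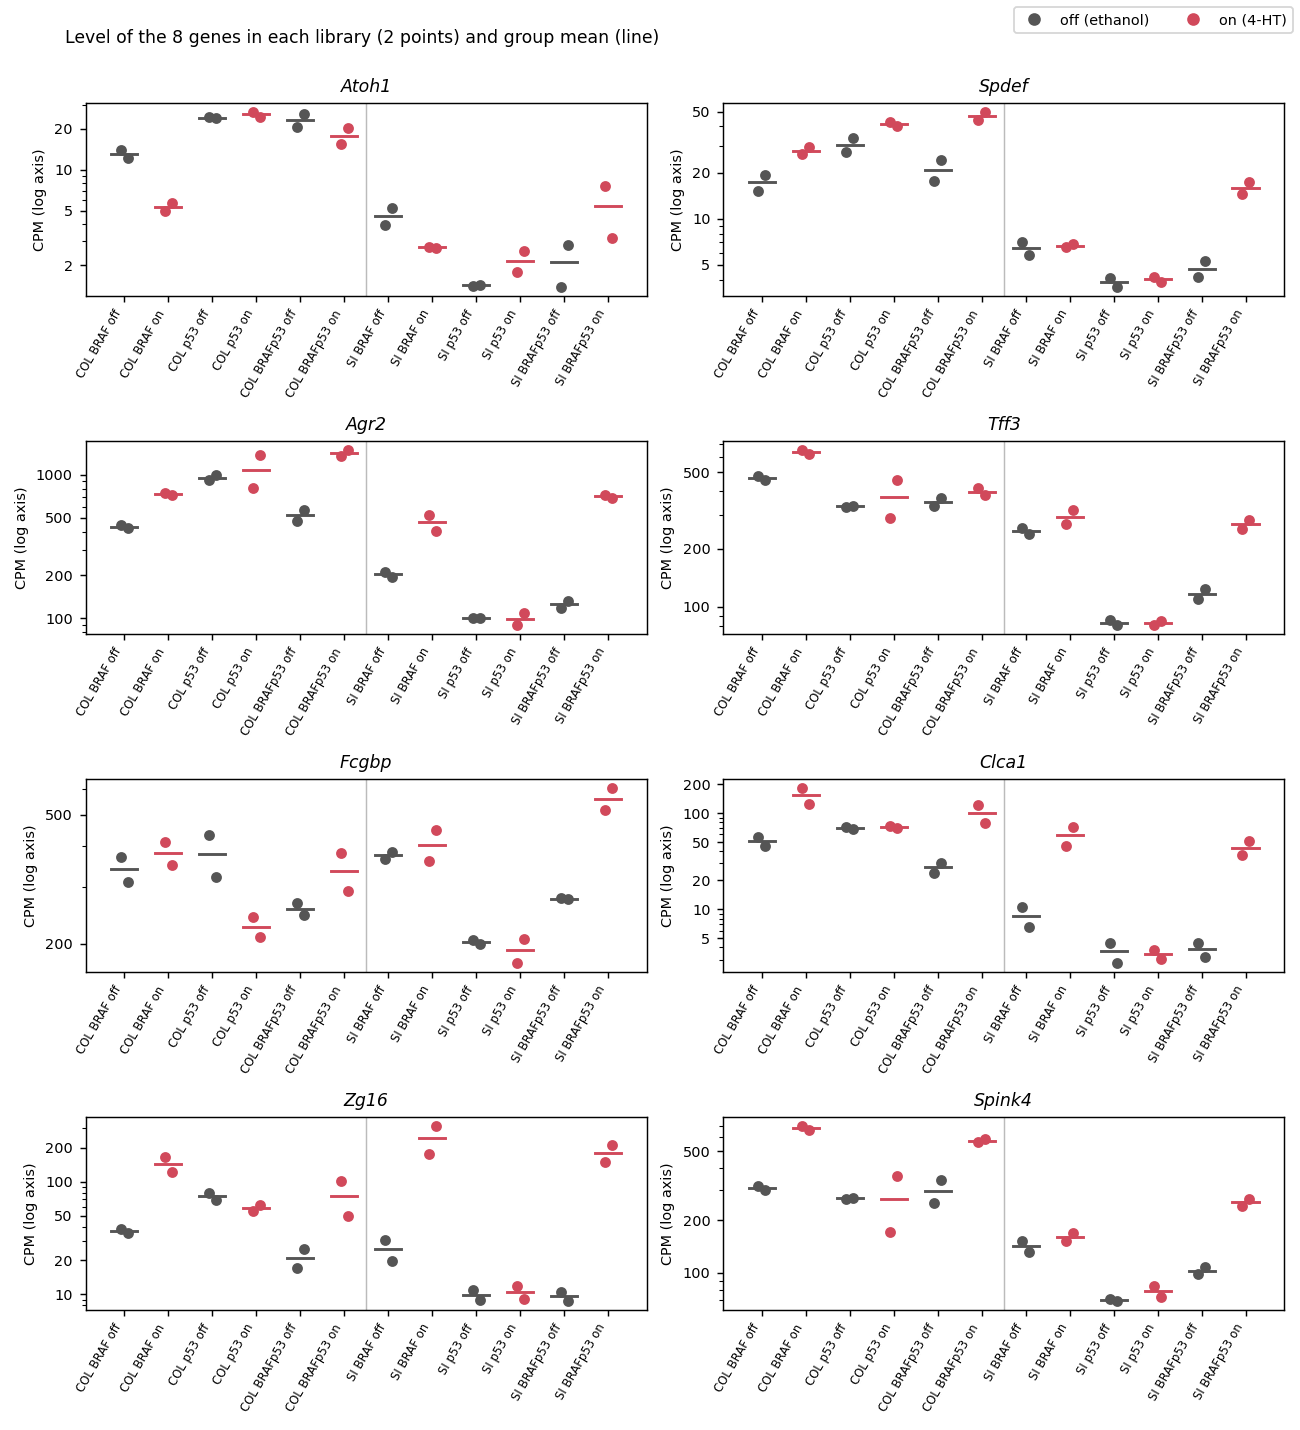
Level of each of the 8 genes in CPM on a log axis, for the 12 groups (COL left of the vertical line, SI right). Points are single libraries, bars group means, grey off and red on. Atoh1 and Spdef were higher in the COL off groups than in the SI off groups, and Clca1 and Zg16 rose with induction in the 4 cultures that carry the Braf allele.

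Per kilobase of exon, which allows genes of different length to be compared, Tff3, Spink4 and Agr2 held the first places in all 12 groups, in varying order, and Atoh1 was the lowest in 10 of 12. In COL BRAF off, Tff3 stood at 947.2 CPM per kb, Spink4 at 644.3, Agr2 at 336.2, Fcgbp at 32.4, Zg16 at 29.0, Clca1 at 13.4, Spdef at 7.47 and Atoh1 at 6.15. In COL BRAF on, Spink4 (1423 CPM per kb) was above Tff3 (1295), and Zg16 (113.2) and Clca1 (40.6) were above Fcgbp (36.4). In SI p53 off, Tff3 again led with 168.5 CPM per kb and Atoh1 was last with 0.671.

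Without induction the goblet cell genes were higher in COL than in SI for 6 of the 8 members, against 29.6% of 17789 genes tested that passed in either direction. This comparison set the 3 COL cultures against the 3 SI cultures, with the off libraries of a culture summed. Atoh1 was at 13.9 and 12.1 CPM in COL BRAF off, 24.3 and 24.0 in COL p53 off and 20.6 and 25.7 in COL BRAFp53 off. In SI the off libraries read 3.94 and 5.24 (BRAF), 1.41 and 1.44 (p53) and 1.39 and 2.83 CPM (BRAFp53). No SI library reached the lowest COL library, and the difference was 2.91 on the log2 scale (SE 0.489, adjusted p = 0.00662). Clca1 differed most, by 3.27 (SE 0.471, adjusted p = 0.00425), from 45.4 to 71.1 CPM in COL BRAF and COL p53 off and 24.0 and 30.6 in COL BRAFp53 off to 2.78 to 10.5 CPM in SI. Spdef (2.23), Agr2 (2.19), Spink4 (1.50) and Tff3 (1.39, adjusted p = 0.0373) were also higher in COL. Zg16 (1.62, adjusted p = 0.0644) did not pass, its COL BRAFp53 off libraries (17.1 and 25.4 CPM) overlapping those of SI BRAF off (30.6 and 19.8). For Fcgbp the cultures of the 2 tissues overlapped, with a difference of 0.22 (SE 0.259, adjusted p = 0.556). The median of the 8 was 1.90 and that of all genes 0.08.

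Other goblet cell genes went the same way, with 18 of 25 tested higher in COL and 1 lower (here and in later lists, genes counted as higher or lower passed the test). Creb3l1, a secretory pathway factor, differed by 2.20 (adjusted p = 0.00126), Ern2, the goblet cell stress sensor of the endoplasmic reticulum, by 2.59, and Foxa3 by 1.48. Of the Notch and secretory fate genes, 4 of 9 were higher in COL, among them the ligand Dll4 (1.96), and the ligand Dll1 was lower (-1.68). Markers of other cell types differed too. Of the Paneth cell markers 3 of 7 were higher in COL, of the enteroendocrine 4 of 6, of the tuft cell 3 of 5 and of the stem cell markers 3 of 5 with 1 lower, and 6 of 10 absorptive markers were lower in COL with 1 higher. The part of these cell types was not tested. Tissue cannot be told apart here from medium, since COL medium also held Wnt3a and CHIR99021, from the 3 or 8 days of culture, or from the donors. The Tff3 call was lost without any 1 of 5 cultures (adjusted p = 0.0679 to 0.125, COL BRAF among them, 0.0897 without it), and without COL BRAF the other 5 members kept their calls. Zg16 passed without SI BRAF (2.19, adjusted p = 0.0331), with no filter on low counts (0.0483) and by DESeq2 (0.00771), while without COL p53 the difference was 0.97 (0.188). Scaling by total counts moved this comparison by 0.27 towards COL.

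Over the 12 groups, Atoh1 was highest in COL p53 on (25.6 ± 1.53 CPM, SD, n = 2) and lowest in SI p53 off (1.42 ± 0.0181). Spdef was highest in COL BRAFp53 on (46.9 ± 4.12) and Agr2 likewise (1412 ± 105.3). Tff3, Clca1 and Spink4 were highest in COL BRAF on, at 638.7 ± 19.9, 153.3 ± 42.1 and 678.6 ± 27.4 CPM. Fcgbp and Zg16 were the members led by SI groups, Fcgbp by SI BRAFp53 on (560.9 ± 62.8) and Zg16 by SI BRAF on (243.4 ± 97.0). Of the 11 pairs of neighbouring groups in each order, 5 overlapped for Atoh1, Agr2 and Spink4 and 6 for the other members.

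Atoh1 fell with induction in COL BRAF, where most of the products rose. In COL BRAF, Atoh1 went from 13.9 and 12.1 CPM off to 4.96 and 5.74 on, with no overlap, a log2 fold change of -1.29 (SE 0.178, adjusted p = 0.000487). It was the only member that fell by the test in any culture, and it held its call under each of the 11 alternatives. In COL BRAFp53 the off libraries read 20.6 and 25.7 CPM and the on libraries 15.5 and 20.2, and the change of -0.38 did not pass (adjusted p = 0.158). In SI BRAF, Atoh1 was 3.94 and 5.24 off and 2.72 and 2.69 on (-0.81, adjusted p = 0.160). In SI BRAFp53 it was 1.39 and 2.83 off and 7.61 and 3.16 on, a change of 1.31 with an SE of 0.416 that did not pass (adjusted p = 0.0615). The latter on libraries were far apart, and the change depended on single libraries. Without on replicate 1 it was 0.56 (adjusted p = 0.517) and without off replicate 1 it was 0.88 (0.342), whereas without on replicate 2 it was 1.81 (0.0191) and without off replicate 2 it was 1.93 (0.0421). DESeq2 (0.0189) and both other filters on low counts (0.00209 and 0.0424) called it, and limma-voom and the replicate block (0.149) did not.

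Spdef, in contrast, was higher with induction in 3 of the 4 cultures with the Braf allele. In COL BRAFp53 it went from 17.7 and 24.1 CPM to 43.99 and 49.8 (1.16, adjusted p = 0.00124). In SI BRAFp53 it went from 4.16 and 5.27 to 14.5 and 17.3 CPM (1.72, adjusted p = 0.000102). Both changes held under every alternative. In COL BRAF it went from 15.2 and 19.2 to 26.3 and 29.4 CPM (0.69, adjusted p = 0.0188), a call that ended without on replicate 1 (0.0521), on replicate 2 (0.111) or off replicate 1 (0.157). In SI BRAF the groups overlapped, at 7.06 and 5.80 CPM off and 6.52 and 6.82 on (0.01, SE 0.201, adjusted p = 0.979).

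Agr2 rose in all 4 of these cultures. The off and on libraries were 444.3 and 423.8 against 739.8 and 724.9 CPM in COL BRAF (0.75, adjusted p = 0.0120) and 475.6 and 570.2 against 1337 and 1486 in COL BRAFp53 (1.43, adjusted p = 0.000375). In SI BRAF they were 209.8 and 194.3 against 527.8 and 402.7 CPM (1.16, adjusted p = 3.85e-05). In SI BRAFp53 they were 118.8 and 132.6 against 719.6 and 691.2 CPM, the largest change of Agr2 (2.45, SE 0.145, adjusted p = 5.59e-07). The groups did not overlap in any of the 4. The COL BRAF call ended without on replicate 1 (adjusted p = 0.0632), off replicate 1 (0.0539) or off replicate 2 (0.0695).

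Among the secreted proteins, Clca1 and Zg16 rose most, in all 4 cultures. Clca1 went from 56.2 and 45.4 to 183 and 123.5 CPM in COL BRAF (1.59) and from 24.0 and 30.6 to 120.9 and 79.3 in COL BRAFp53 (1.88). In SI it went from 10.5 and 6.55 to 45.1 and 72.2 CPM in BRAF (2.74) and from 4.43 and 3.19 to 36.4 and 51.2 in BRAFp53 (3.49, SE 0.321). The adjusted p-values were 0.000568, 0.000272, 2.10e-05 and 1.40e-05 in that order. Zg16 went from 37.8 and 35.1 to 164.2 and 120.5 CPM in COL BRAF (1.96), and from 17.1 and 25.4 to 100.5 and 49.2 in COL BRAFp53 (1.82). In SI it reached 174.8 and 312 CPM in BRAF from 30.6 and 19.8 (3.23) and 150.7 and 210.4 in BRAFp53 from 10.5 and 8.79 (4.19, SE 0.296), an 18.3-fold change and the largest of any member. Every on library of both genes lay above its off libraries, and all 8 calls held under each alternative of tool, scaling, filter and left-out library.

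Spink4 rose in 3 cultures. It went from 315.6 and 299 to 698 and 659.2 CPM in COL BRAF (1.14, adjusted p = 0.00735), from 253.2 and 339.2 to 562.2 and 583.2 in COL BRAFp53 (0.95, adjusted p = 0.0216) and from 98.5 and 107.7 to 240.8 and 266.9 in SI BRAFp53 (1.26, adjusted p = 1.72e-05). In SI BRAF it was 152.3 and 131.2 CPM off and 151.3 and 168.6 on, overlapping (0.13, adjusted p = 0.443). The COL BRAFp53 call ended without on replicate 1 (adjusted p = 0.0634), on replicate 2 (0.0632) or off replicate 1 (0.129).

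Tff3 and Fcgbp passed only in SI BRAFp53, although the off and on libraries of Tff3 did not overlap in any of the 4 cultures. In SI BRAFp53 Tff3 went from 109.4 and 124.4 to 253.6 and 282.2 CPM (1.16, adjusted p = 2.69e-05) and Fcgbp from 276 and 274.3 to 516.5 and 605.3 CPM (0.99, adjusted p = 0.000219). Both groups of libraries were apart. In COL BRAF, Tff3 went from 480.1 and 453.8 to 652.7 and 624.6 CPM, a change of 0.45 that did not pass (SE 0.159, adjusted p = 0.0685). It did pass under 5 of 11 alternatives, by DESeq2 (0.0284) and limma-voom (0.0499) among them. The others were no filter on low counts (0.0044), at least 10 counts in every library (0.0421) and this culture fitted alone (0.00345). Fcgbp overlapped in that culture, with 369.1 and 310.4 CPM off and 412.6 and 350.6 on (0.16, adjusted p = 0.566). In COL BRAFp53 the changes were 0.18 for Tff3 and 0.39 for Fcgbp, and in SI BRAF 0.20 and 0.06, none past the threshold. Fcgbp did not overlap in COL BRAFp53, and with no filter on low counts its change passed (0.40, adjusted p = 0.0123).

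**Figure D2:**
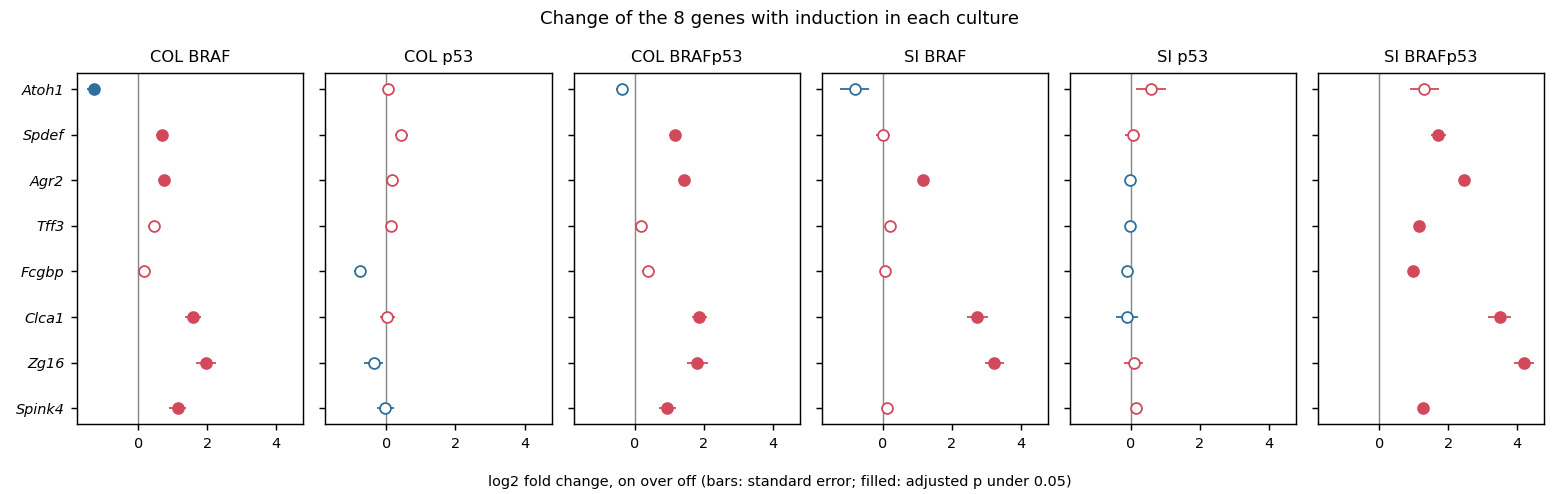
Log2 fold change of on over off for the 8 genes in the 6 cultures, with standard errors from edgeR. Filled points passed an adjusted p of 0.05, red is higher with induction and blue lower. In the p53 cultures no point is filled, in SI BRAFp53 every point but Atoh1 is.

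By culture, 5 members rose and 1 fell in COL BRAF, where 19.9% of 18972 genes tested passed in either direction. In COL BRAFp53 5 rose (17.7% of genes passed), in SI BRAF 3 rose (31.7% of 16856) and in SI BRAFp53 7 rose (11.5%). The median change of the 8 was 0.72, 1.06, 0.16 and 1.51 in that order, beside medians of all genes of -0.01, -0.04, -0.06 and -0.03. Scaling by total counts in place of TMM moved these comparisons by -0.18, -0.15, -0.34 and -0.07, and turned the sign of 5 changes that had not passed, Fcgbp in COL BRAF and Spdef, Tff3, Fcgbp and Spink4 in SI BRAF. Leaving out SI BRAF on replicate 1, the library with Xist counts, kept the SI BRAF count at 3. In bulk RNA, more goblet cells and more RNA per goblet cell cannot be told apart.

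Induction of p53R172H alone changed no member by the test. In COL p53, 0.142% of 18972 genes passed (27 genes, and 1583 at an unadjusted p under 0.05), and in SI p53 0.0% of 16856 did (873 at an unadjusted p under 0.05). Fcgbp in COL p53 came nearest, with 433.4 and 321.3 CPM off and 241 and 209.7 on, no overlap, and a change of -0.77 (SE 0.171, adjusted p = 0.130). DESeq2 called it (0.00250), as did the fit without a filter on low counts. Spdef in the same culture was 27.2 and 33.6 off and 42.9 and 40.4 CPM on (0.44, adjusted p = 0.524). COL p53 on replicates 1 and 2 were far apart for Spink4 (171.2 and 361.5 CPM), Agr2 (809.7 and 1360 CPM) and Tff3 (288.7 and 453.9 CPM). In SI p53 the changes ran from -0.11 (Clca1) to 0.58 (Atoh1, 1.41 and 1.44 CPM off and 1.77 and 2.55 on).

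The further goblet cell genes moved in both directions in COL and mostly upward in SI BRAFp53. Of 25 tested in COL BRAF 9 rose and 4 fell, and in COL BRAFp53 7 rose and 4 fell. Muc2 rose by 2.22 and 1.67 on the log2 scale in these cultures, Bcas1 by 1.96 and 1.61, while Nlrp6, an inflammasome sensor, changed by -1.30 and -1.47. Ern2 rose by 0.96 and 1.13, and Lrrc26 by 1.25 in COL BRAFp53. Of 23 tested in SI BRAF 7 rose and 4 fell, and in SI BRAFp53 12 rose and 0 fell. There Muc2 changed by 2.36 and 3.43, Creb3l1 by 1.23 and 2.36 and Klf4, a factor of goblet cell differentiation, by 1.75 and 1.83, and in SI BRAFp53 Ern2 by 2.12. Guca2a (guanylin) changed by 2.91 in SI BRAF and reached a group mean of 2892 CPM, most of the list's summed level there. Without SI BRAF on replicate 1, 8 of 23 rose and 5 fell in SI BRAF, with Muc2 at 2.77, Creb3l1 at 1.31, Klf4 at 1.98 and Guca2a at 3.04. None of the list passed in either p53 culture. Its median changes in COL BRAF, COL BRAFp53, SI BRAF and SI BRAFp53 were 0.32, 0.23, 0.10 and 0.99.

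Beside Atoh1, 5 of 9 Notch and secretory fate genes fell in COL BRAF and 0 rose. The receptor Notch1 changed by -1.08 (adjusted p = 0.00147), the ligands Dll1 and Dll4 by -1.84 and -1.03, the target Hes1 by -0.55 and Rbpj, the DNA-binding partner of Notch, by -0.59. In COL BRAFp53 5 fell and Jag1 rose (0.77). In SI BRAF 6 fell, among them Hes1 (-1.15) and Notch1 (-1.48), and 1 rose. In SI BRAFp53 Notch1 fell (-0.77) and Dll1 rose (0.68). Stem cell markers fell in the same comparisons, 4 of 5 in both COL cultures, 5 of 5 in SI BRAF and 1 of 5 in SI BRAFp53. Paneth cell markers, which share the secretory origin, summed to 871.3 CPM off and 839.3 on in COL BRAF, with 1 of 7 higher and 0 lower. In SI BRAF they summed to 627.8 off and 227.2 on, and 5 of 7 fell. In SI BRAFp53 they summed to 249.9 off and 366.3 on, with 4 of 7 higher and 0 lower. In COL BRAFp53 they summed to 1874 off and 1457 on, with 1 higher and 2 lower. Enteroendocrine markers summed to 213.7 off and 448.4 CPM on in COL BRAF, 189.6 and 426.1 in COL BRAFp53, 77.8 and 136.4 in SI BRAF and 183.4 and 243.2 in SI BRAFp53, with 3, 3, 1 and 1 of 6 higher. Tuft cell markers were lower for 4 of 5 in SI BRAF, 2 in COL BRAFp53, 1 in SI BRAFp53 and 0 in COL BRAF. In SI BRAF, absorptive markers summed to 12130 CPM off and 48370 on, with 7 of 9 higher and 0 lower (median change 1.64). They summed to 2696 off and 6325 CPM on in COL BRAF (4 of 10 higher, 2 lower, median change 0.59), 5202 and 9527 in COL BRAFp53 (3 higher, 2 lower, median 0.11) and 21920 and 32130 in SI BRAFp53 (4 of 9 higher, 2 lower, median 0.33). The carbonic anhydrase Car1 made up most of the COL on sums, at 4047 CPM in COL BRAF and 7459 in COL BRAFp53, whose on libraries summed to 12150 and 6900 CPM. General epithelial markers were higher for 3, 3, 4 and 2 of 4 in COL BRAF, COL BRAFp53, SI BRAF and SI BRAFp53. Without SI BRAF on replicate 1, 5 Notch and secretory fate genes, 5 stem cell, 5 Paneth cell and 5 tuft cell markers fell in SI BRAF, 7 absorptive markers rose and 1 fell, and 1 enteroendocrine and 4 epithelial markers rose. The stem cell markers of that library summed to 156.8 CPM, against 53.6 in SI BRAF on replicate 2. The part of these cell types in the members' changes was not tested.

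The double mutant was then set against BRAFV600E alone. In SI, the log2 response of 6 members was higher in BRAFp53 than in BRAF, and 8.2% of genes passed this test in either direction. The difference of the log2 fold changes was 2.12 for Atoh1 (adjusted p = 0.0434), 1.71 for Spdef (0.00289), 1.29 for Agr2 (0.00158), 1.13 for Spink4 (0.00129), 0.96 for Tff3 (0.00318) and 0.93 for Fcgbp (0.00679). Clca1 (0.75, SE 0.418, adjusted p = 0.320) and Zg16 (0.96, SE 0.373, adjusted p = 0.142) did not pass. Zg16 passed without SI BRAF on replicate 2 (1.44, adjusted p = 0.0257) and with no filter on low counts, and was 0.61 (0.277) without SI BRAF on replicate 1 and 0.64 (0.393) without off replicate 1. All 8 had the same sign, and the median was 1.05, beside 0.03 for all genes. The starting levels of the cultures differed: for all 8 members both SI BRAF off libraries lay above the 4 off libraries of SI p53 and SI BRAFp53. The ratio of SI BRAF off to SI BRAFp53 off was 2.12 for Tff3, 2.18 for Atoh1, 1.61 for Agr2, 2.24 for Clca1, 2.61 for Zg16 and 1.36 to 1.37 for Spdef, Fcgbp and Spink4. After induction, Spdef was 15.9 CPM in SI BRAFp53 and 6.67 in SI BRAF, a ratio of 2.39 with no overlap. Atoh1 (1.99), Spink4 (1.59), Agr2 (1.52) and Fcgbp (1.39) were also apart on. The on libraries of the other three overlapped, with mean levels lower in SI BRAFp53 than in SI BRAF, at ratios of 0.912 for Tff3, 0.747 for Clca1 and 0.742 for Zg16. The p53 allele and the culture's starting state cannot be told apart here. Without SI BRAF on replicate 1 the Atoh1 difference was 2.13 and did not pass (adjusted p = 0.0561), and it also ended without any other SI BRAF library or replicate 1 of SI BRAFp53 on or off (1.35 to 2.32, adjusted p = 0.0527 to 0.203), by limma-voom (0.0547) and with a replicate block (2.05, 0.110), while the other 5 calls held under each of these. By the same test the difference passed with a positive sign for 7 of 23 further goblet cell genes and with a negative sign for 1 (median of the 23, 1.07). It passed with a positive sign for 7 of 7 Paneth cell and 3 of 5 stem cell markers, and with a negative sign for 6 of 9 absorptive markers. The median change of all 5 stem cell markers was -2.20 in SI BRAF (-2.97 without its on replicate 1) and -0.79 in SI BRAFp53. Without that library the median difference went from 1.29 to 2.08 for tuft cell markers and from 0.71 to 0.99 for Notch and secretory fate genes. In the main fit the difference passed with a positive sign for 2 of 9 Notch and secretory fate genes and 0 of 5 tuft cell markers. With a negative sign it passed for 2 of 4 epithelial and 1 of 6 enteroendocrine markers. Without SI BRAF on replicate 1 it passed with a positive sign for 9 further goblet cell genes, 6 Paneth cell and 5 stem cell markers, and with a negative sign for 1 goblet cell gene and 6 absorptive markers. The part of these markers was not tested.

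In COL no member's response differed by the test between BRAFp53 and BRAF, where 0.907% of genes passed (172 genes, 3596 at an unadjusted p under 0.05). Atoh1 had the largest difference, 0.92 (SE 0.245, adjusted p = 0.0863), which DESeq2 called (0.0110). Agr2 followed with 0.68 (adjusted p = 0.179) and Spdef with 0.48 (0.337), and Tff3, Zg16 and Spink4 lay at -0.27, -0.14 and -0.19. In the COL off libraries Atoh1 was 13.9 and 12.1 CPM in BRAF and 20.6 and 25.7 in BRAFp53, so these cultures also started apart.

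**Figure D3:**
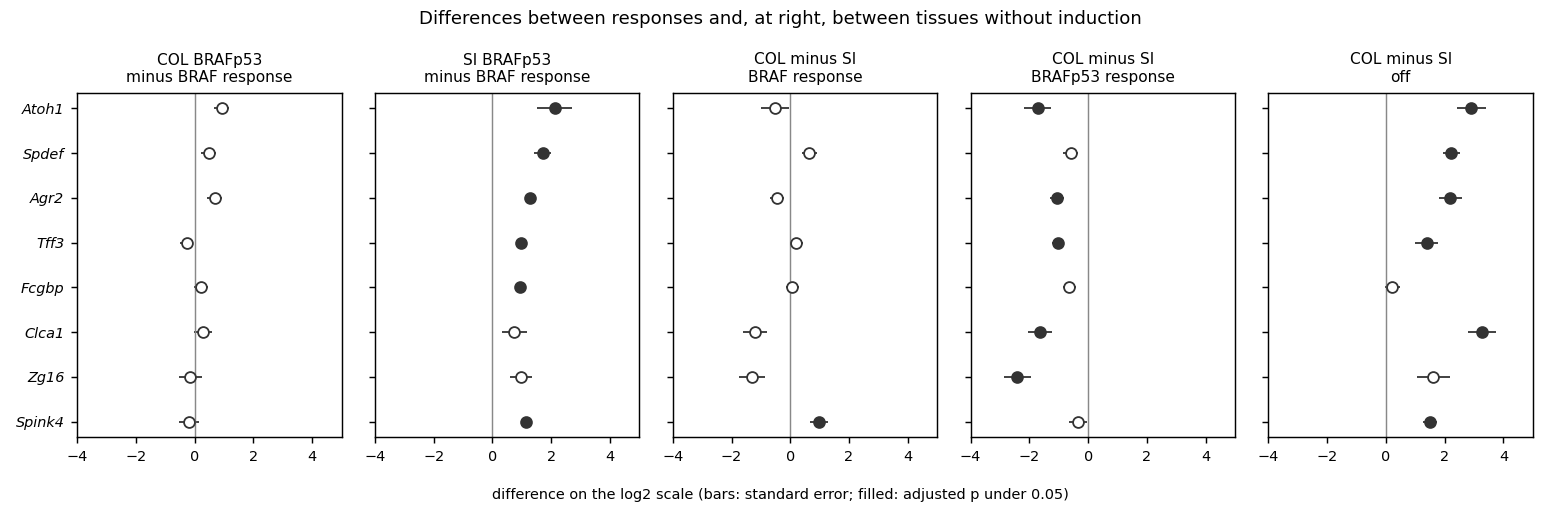
Differences on the log2 scale with standard errors, for BRAFp53 minus BRAF response within each tissue, for COL minus SI responses and, at right, for COL minus SI without induction. Filled points passed an adjusted p of 0.05. The SI difference is above 0 for all 8 genes, with 6 filled, and COL minus SI BRAFp53 is below 0 for all 8, with 5 filled.

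Between tissues, the response to BRAFV600E alone differed for 1 member, against 10.7% of 19673 genes tested. Spink4 responded more in COL, by 0.97 (SE 0.304, adjusted p = 0.0477), a call that ended without any 1 of the 8 libraries (0.0668 to 0.139). Clca1 (-1.19, adjusted p = 0.0675) and Zg16 (-1.31, adjusted p = 0.0644) had differences towards SI that did not pass. Without SI BRAF on replicate 1 both passed, at -1.49 (0.0279) and -1.66 (0.0199), and without off replicate 1 likewise, at -1.57 (0.0335) and -1.65 (0.0402). Without SI BRAF on replicate 2 they were -0.82 (0.278) and -0.83 (0.297), and without off replicate 2 they did not pass either (0.294 and 0.259). Clca1 also passed without COL BRAF on replicate 1 (-1.51, 0.0440) and by DESeq2 (0.0227), and both passed with either other filter on low counts. For BRAFV600E alone, 3 of 7 Paneth cell and 2 of 5 tuft cell markers passed towards COL and 0 towards SI. Of 10 absorptive markers 5 passed towards SI and 0 towards COL, and of 25 further goblet cell genes 4 and 2. Of 9 Notch and secretory fate genes 2 passed towards SI and 3 towards COL. Without SI BRAF on replicate 1 the medians of Paneth, tuft and absorptive markers went from 1.28, 1.53 and -1.55 to 1.35, 2.61 and -1.77. The part of these lists was not tested. The response to both oncogenes differed for 5 members, all lower in COL, against 3.52% of genes. Atoh1 had changes of opposite sign in the cultures compared, neither of which passed. Zg16 differed by -2.41 (SE 0.447, adjusted p = 0.00567), Atoh1 by -1.72 (0.0436), Clca1 by -1.64 (0.0327), Agr2 by -1.06 (0.0218) and Tff3 by -1.01 (0.0101). Zg16 held under all 14 alternatives. Of the other lists, the same difference passed towards SI for 6 of 25 further goblet cell genes, 3 of 7 Paneth cell, 2 of 5 stem cell and 3 of 10 absorptive markers, and towards COL for 1, 0, 0 and 1, and their part was not tested. The Tff3 call ended without SI BRAFp53 on replicate 2 (0.0603) or off replicate 1 (0.0585). Leaving out 1 library ended the Agr2 call for 5 of 8 libraries (0.0576 to 0.0982), the Clca1 call for 5 (0.0567 to 0.163) and the Atoh1 call for 6 (0.0539 to 0.244), limma-voom and the replicate block did not call Clca1 (0.0788 and 0.0665) or Atoh1 (0.0589 and 0.124), and without SI BRAFp53 off replicate 1 the only member called was Zg16. The response to p53R172H differed for 0 members, where 0.117% of genes passed (1532 genes had an unadjusted p under 0.05), and the fit with no filter called 1 member, Fcgbp (-0.66, adjusted p = 0.0202). The COL levels started higher for most members, 4-HT dose and harvest day differed between the tissues, and these cannot be told apart from the tissue.

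Some pairs of members moved together when levels were compared across the 12 libraries of a tissue, which share cultures and scaling. Clca1 and Zg16 had a Pearson r of 0.97 in COL and 0.997 in SI on log2 CPM, and Spdef and Agr2 0.92 and 0.90. In SI all 28 pairs were positive (0.48 to 0.997, median 0.86). In COL the median was 0.38 and 9 pairs were negative, with Atoh1 against Tff3 at -0.91 and against Spink4 at -0.71, while the same pairs had 0.72 and 0.73 in SI. The plot of pairs of members shows these paths: in both BRAF cultures and in COL BRAFp53, the mean of Clca1 was higher and that of Atoh1 lower with induction, and in SI BRAFp53 both means were higher, although the change of Atoh1 passed in COL BRAF alone.

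**Figure D4:**
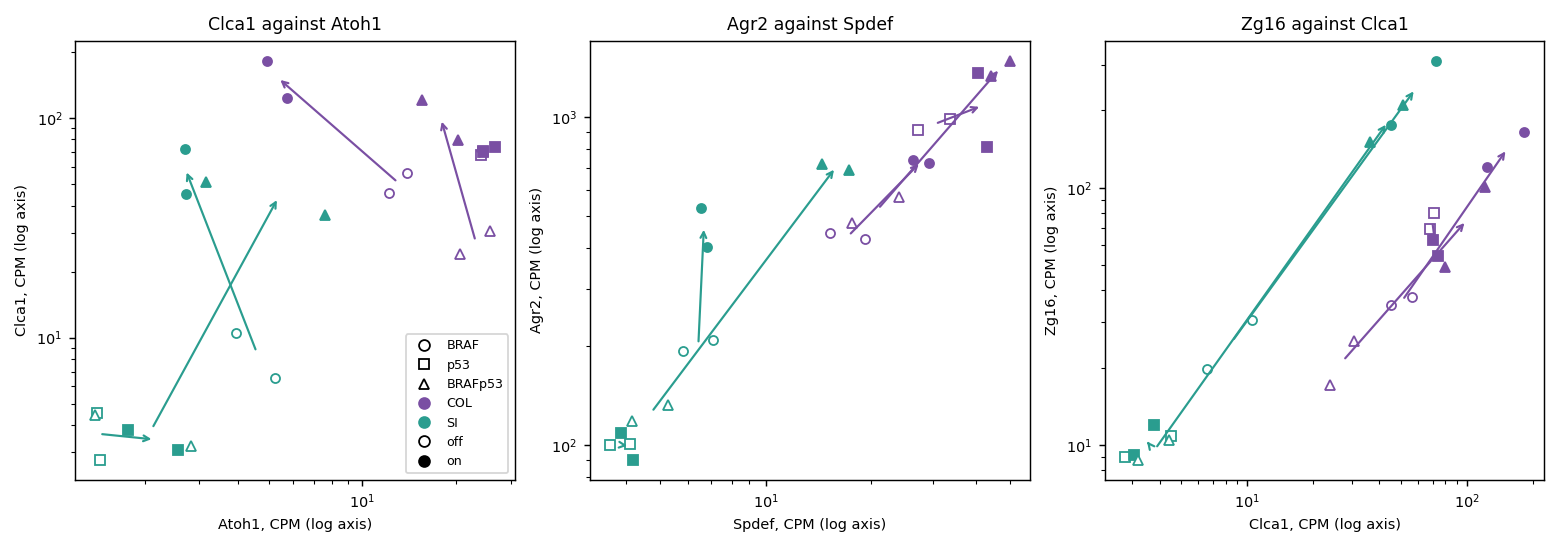
Levels of 2 members against each other in CPM on log axes (Clca1 against Atoh1, Agr2 against Spdef, Zg16 against Clca1). Each point is 1 library, purple COL and green SI, open off and filled on, with an arrow from the off to the on mean of each culture. Zg16 and Clca1 lie along 1 line within each tissue, with more Zg16 for the same Clca1 in SI.

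Over 9719 genes with a mean log2 CPM of at least 1 in both tissues, the genes most like each member by the lower of the COL and SI correlations were, for Spdef, Pglyrp1 (0.91), Agr2 (0.90) and Nox1 (0.88). For Agr2 they were Pglyrp1 (0.94), Muc2 (0.92) and Ern2 (0.92), 2 of them in the further goblet cell list. Clca1 and Zg16 each had the other first (0.97) and the hexokinase gene Hk2 next (0.94 and 0.93). Tff3 was followed by Smim6 (0.92) and Mmp7, matrilysin of Paneth cells (0.91), Spink4 by Phlda1 (0.89) and Fhl3 (0.89), Fcgbp by Sipa1l1 (0.83) and Ifi27l2b (0.80), and Atoh1 by the chemokine gene Ccl9 (0.82) and Slc39a10 (0.80).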

How the data were processed

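RNA of 24 organoid libraries was sequenced with paired ends on a HiSeq4000. Per the labels and methods, the authors trimmed reads with Trimmomatic 0.36 and aligned to mm10 and counted reads per gene with STAR 2.5.2b (the notes also list mm9, whose role was not given in the sources used here). The deposited values are raw counts per Ensembl gene, not pooled. Annotation release and strand setting were not given in the sources used here. Symbols were matched through GENCODE M21 (45143 of 45706 identifiers).

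Counts were fitted with edgeR 4.0.16 (TMM, filterByExpr, quasi-likelihood F test, R 4.3.3), 1 fit per tissue over its 12 libraries and 1 over all 24 for differences between tissues. Off libraries were summed per culture for the tissue comparison (3 against 3). A call is a Benjamini-Hochberg adjusted p under 0.05 over all genes tested. The SE is the log2 fold change divided by the root of F. The fitting function was also run on simulated counts, and that outcome is not given here. Alternatives were RLE factors, other filters, DESeq2 1.42.0, limma-voom 3.58.1, a log2 fold minimum of 1, each culture alone, a replicate block and leaving out each library. The gene lists without SI BRAF on replicate 1 were added after seeing the data. Named genes were all 8 members, list genes by lowest adjusted p, and up to 3 most correlated genes per member (log2 CPM, prior count 2). Up to 4 genes were named per list and comparison. More were named for Notch and secretory fate genes in COL BRAF and for further goblet cell genes in COL BRAFp53. The members and lists were chosen with earlier results of these data known. Replicates of every group differed beyond sampling noise.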

Additional observations from a re-analysis of the deposited data

Results flagged for a closer look

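The following differences between responses passed edgeR's quasi-likelihood test of the difference itself (adjusted p under 0.05 over all genes). Between SI BRAFp53 and SI BRAF, the log2 response differed by 2.12 for Atoh1, 1.71 for Spdef, 1.29 for Agr2, 0.96 for Tff3, 0.93 for Fcgbp and 1.13 for Spink4, each higher in SI BRAFp53. The SI BRAF off libraries of all 8 genes started above those of SI BRAFp53, and the part of the starting level was not tested.

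The Atoh1 difference lost its call without any 1 of 6 of the 8 libraries, by limma-voom and with a replicate block.

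Between tissues, the response of Spink4 to BRAFV600E was larger in COL by 0.97, a call that ended without any 1 of the 8 libraries (adjusted p = 0.0668 to 0.139), and 1 of 8 members stands beside 10.7% of all genes. The response to both oncogenes in COL minus that in SI was -1.72 for Atoh1, -1.06 for Agr2, -1.01 for Tff3, -1.64 for Clca1 and -2.41 for Zg16. COL and SI differed in 4-HT dose, harvest day, medium and donor, which cannot be told apart from tissue. The calls of Atoh1 and Clca1 ended by limma-voom and with a replicate block, and without any 1 of 6 and of 5 of the 8 libraries. The Agr2 call ended without any 1 of 5 libraries and the Tff3 call without either of 2, while Zg16 kept its call. Groups of 2 libraries were too small for the test of an outlying value within a group.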

How the results depend on the processing

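Over 1280 refits of a member in a comparison, with the log2 fold minimum of 1 counted among them, 1157 kept the direction and the side of the threshold. In the rest, 59 lost a call, 33 gained one and 31 changed sign. None of the 31 was of a called change, and the cause of the changed calls was not tested. The log2 fold minimum of 1 was a cut on the main fit, so under it no sign could change and no call could be gained. The number of members called (of 8) moved by over 1.5 times in 5 comparisons. In COL p53 it was 1 with no filter on low counts and 1 by DESeq2, against 0. For COL BRAFp53 minus BRAF it was 2 with no filter and 1 by DESeq2, against 0. For COL minus SI BRAF it was 3 with no filter, 3 with at least 10 counts in every library, 2 by DESeq2, 0 with a log2 fold minimum of 1 and 0 to 2 without single libraries, against 1. For COL minus SI p53 it was 1 with no filter, against 0. For COL minus SI BRAFp53 it was 3 by limma-voom, 3 with a replicate block and 1 to 4 without single libraries, against 5.

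The replicate number did not pair the libraries, since the deviations of same-numbered libraries from their group means correlated by -0.04 to 0.06 in the 6 cultures. The block also left 5 members called for SI BRAFp53 minus BRAF, and the numbers of the other comparisons as reported.

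Sign changes among these refits arose where 1 library was left out and only for changes that had not passed. The ranges without single libraries were, in COL p53, -0.0205 to 0.12 (Atoh1), -0.029 to 0.0725 (Clca1), -0.67 to 0.39 (Spink4), -0.25 to 0.48 (Agr2) and -0.22 to 0.41 (Tff3). In SI p53 they were -0.18 to 0.11 (Agr2), -0.0786 to 0.0285 (Tff3), -0.24 to 0.0186 (Fcgbp), -0.12 to 0.25 (Zg16), -0.43 to 0.30 (Clca1) and -0.064 to 0.16 (Spdef). In SI BRAF they were -0.12 to 0.14 (Spdef) and -0.10 to 0.22 (Fcgbp). For COL BRAFp53 minus BRAF they were -0.73 to 0.30 (Zg16), -0.0295 to 0.62 (Clca1) and -0.39 to 0.0511 (Spink4). For COL minus SI they were -0.0848 to 0.23 (Fcgbp, BRAF), and for p53 -0.80 to 0.27 (Spink4), -0.22 to 0.52 (Agr2), -0.19 to 0.45 (Tff3) and -0.26 to 0.44 (Clca1). CPM by total counts moved 43 of 96 group levels by more than 1 SD.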
